A study of Mus musculus with 8 samples.

Results

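The subunits of the receptors for GABA, glycine and glutamate were examined in fetal hypothalamic cells of the Ptf1a lineage, with and without an intact Ptf1a allele. The members were the protein-coding genes whose names match the receptor families Gabra to Gabrr with a number, Gabbr1 and Gabbr2, Glra and Glrb, Gria1 to Gria4, Grik1 to Grik5, Grin1 to Grin3, Grid with a number, and Grm with a number, leaving out Grina. They number 48 of the 51826 genes in each library's table: 15 GABA-A, 2 GABA-B, 5 glycine, 4 AMPA, 5 kainate, 7 NMDA, 2 delta and 8 metabotropic glutamate receptor subunits. C57BL/6 fetuses were taken at embryonic day 14.5, and hypothalami were dissociated with papain. Red fluorescent, propidium iodide-negative cells were sorted by flow cytometry, and 10 ng of total RNA per sample went into a stranded total RNA library read as pairs of 36 bases. The control group, called Het, was Ptf1a cre/+ with the Ai9 reporter on 1 allele (libraries 1, 2, 3 and 4). The mutant group, called Homo, was Ptf1a cre/cre with Ai9 (libraries 9, 10, 11 and 12). Both groups carry cre in place of at least 1 Ptf1a allele, so Het cells are not wild type, and the reporter marks every descendant of a cell that once expressed cre, whatever it became. The labels do not say whether the 4 libraries of a genotype came from separate fetuses or litters, so the p-values measure the spread between these libraries only.

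Ptf1a is a basic helix-loop-helix factor known for specifying inhibitory neurons in the spinal cord, hindbrain, cerebellum and retina. GABA-A and glycine receptors are pentameric chloride channels, and GABA-B receptors are heterodimers that signal through G proteins. AMPA, kainate and NMDA receptors are tetrameric cation channels opened by glutamate, the delta receptors of the same family bind cerebellins at synapses, and the metabotropic receptors signal through G proteins. In fetal neurons, which hold more chloride than mature ones, GABA and glycine often depolarise the cell, and their receptors appear before most synapses have formed. Intron reads of a total RNA library come from unspliced RNA and from any genomic DNA carried over, whereas reads across exon junctions need spliced RNA. The comparison therefore sets exon reads beside intron reads of the same genes, Homo against Het.

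Libraries held between 2502390 and 3009180 exon reads. The 9 hypothalamic markers summed to between 844 and 1221 counts per 1000000 reads (CPM) and the 8 pan-neuronal markers to between 6068 and 7460 CPM, all with reads. Ptf1a itself had 1 exon read in Het library 3 and 0 in the other 7 libraries, so it cannot check the genotypes. Of the receptor subunits' own reads, introns held 65.9, 72.3, 86.6 and 82.6% in Het libraries 1 to 4 and 76, 86.1, 85.5 and 86.5% in Homo libraries 9 to 12. Reads on 1442 olfactory and vomeronasal receptor genes, which hypothalamic neurons should not express, amounted to 0.0102, 0.0323, 0.145 and 0.239 reads per 1000000 exon reads for each kilobase of exon in Het and 0.0950, 0.621, 0.509 and 0.480 in Homo (exact two-sided permutation p = 0.0857, adjusted p = 0.233 over 19 library measures). The slope of gene level on transcript GC content was 0.401, 0.412, 0.0523 and 0.0820 log2 units per 10 points in Het and -0.181, -0.227, -0.232 and -0.307 in Homo, with no overlap (exact permutation p = 0.0286, the smallest that 4 against 4 libraries allow; adjusted p = 0.233). Genotype and this slope cannot be told apart. Markers of other cell types also differed in level between libraries. The 6 oligodendrocyte-lineage markers summed to 93.6 ± 4.89 CPM in Het and 124 ± 11.5 CPM in Homo (exact permutation p = 0.0286, adjusted p = 0.233), and the 5 telencephalic markers to 107, 139, 124 and 158 CPM in Het and 3.99, 29.2, 113 and 86.6 CPM in Homo. Endothelial markers were high in libraries 3 and 12 (129 and 165 CPM, against 2.54 to 24.2 CPM in the others), and mesenchymal markers in library 12 (208 CPM). Their part in the results on the receptor subunits was not tested.

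**Figure D1:**
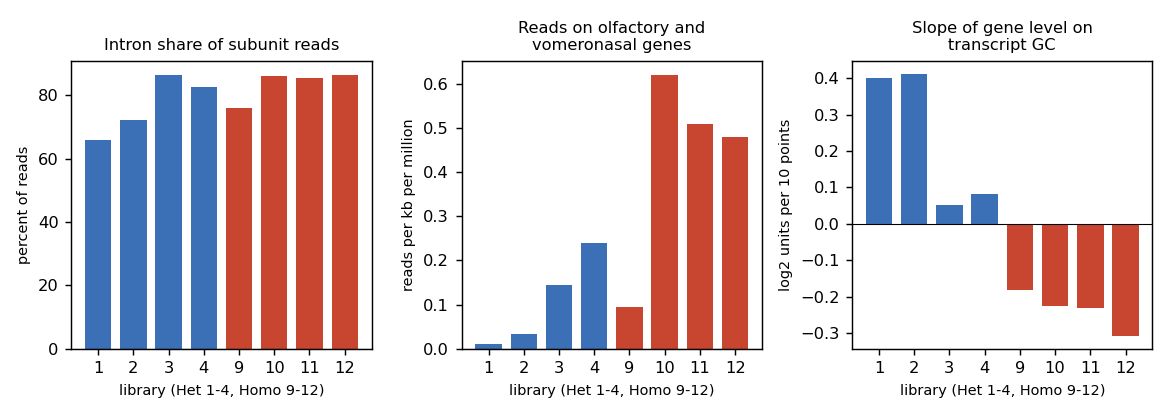
Measures of the 8 libraries that stand beside the receptor results: the intron share of subunit reads in percent, olfactory and vomeronasal receptor genes in reads per 1000000 exon reads for each kilobase, and the slope of log2 gene level on transcript GC. Bars are single libraries, blue for Het and red for Homo. Het libraries 1 and 2 have the lowest intron shares and the fewest olfactory reads, and the GC slope is above 0 in every Het and below 0 in every Homo library.

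The cells carried RNA for a small set of subunits in each family. On the deposited length-scaled unit, reads per 1000000 for each kilobase of exon (RPKM), the highest Het mean was that of Gabbr1, the GABA-binding subunit of the GABA-B receptor (19 ± 4.67 RPKM in Het and 13.6 ± 3.58 RPKM in Homo; mean ± SD, n = 4 for each genotype here and below). Grik5, a high-affinity kainate receptor subunit, came next in Het (13.2 ± 2.89 RPKM in Het and 6.49 ± 2.19 RPKM in Homo). The Het ranges of Gabbr1 and Grik5 overlap, but Gabbr1 was the higher within each Het library. A band of levels followed in Het, with Gria1 at 6.78 ± 0.996, Gria2 at 5.17 ± 1.87, Grik3 at 4.71 ± 0.691 and Gria4 at 4.67 ± 1.01 RPKM. Neighbours among these do not differ beyond the spread between libraries, but Gria1 was above Gria4 within each Het library. Below them lay Gabra5 (3.51 ± 0.460), Gabra3 (3.42 ± 0.163), Grin2b (3.41 ± 0.868) and Grik2 (1.92 ± 0.922 RPKM). Of the 48 subunits, 36 had Het means under 1.5 RPKM. RPKM is used here to compare genes, and CPM to compare libraries.

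Within channel classes a few subunits predominated. Most of the GABA-A alpha class RPKM in Het and in Homo was held by Gabra5 (45.2% ± 5.71 and 42.1% ± 8.52) and Gabra3 (44.1% ± 1.34 and 46.1% ± 5.39). Grin2b, the GluN2 subunit typical of the embryonic brain, held 85.3% ± 5.96 and 82.1% ± 5.34 of the GluN2 class, against 2.02% ± 1.77 and 5.06% ± 2.51 for Grin2a, its postnatal counterpart. In Het, 3 of the 4 AMPA subunits shared most of the AMPA class, with Gria1 at 40.6% ± 6.61, Gria2 at 30.3% ± 7.32 and Gria4 at 27.7% ± 4.58, and Gria3 held 1.33% ± 1.01. These shares are descriptions, since a rise of one member lowers the share of the rest.

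**Figure D2:**
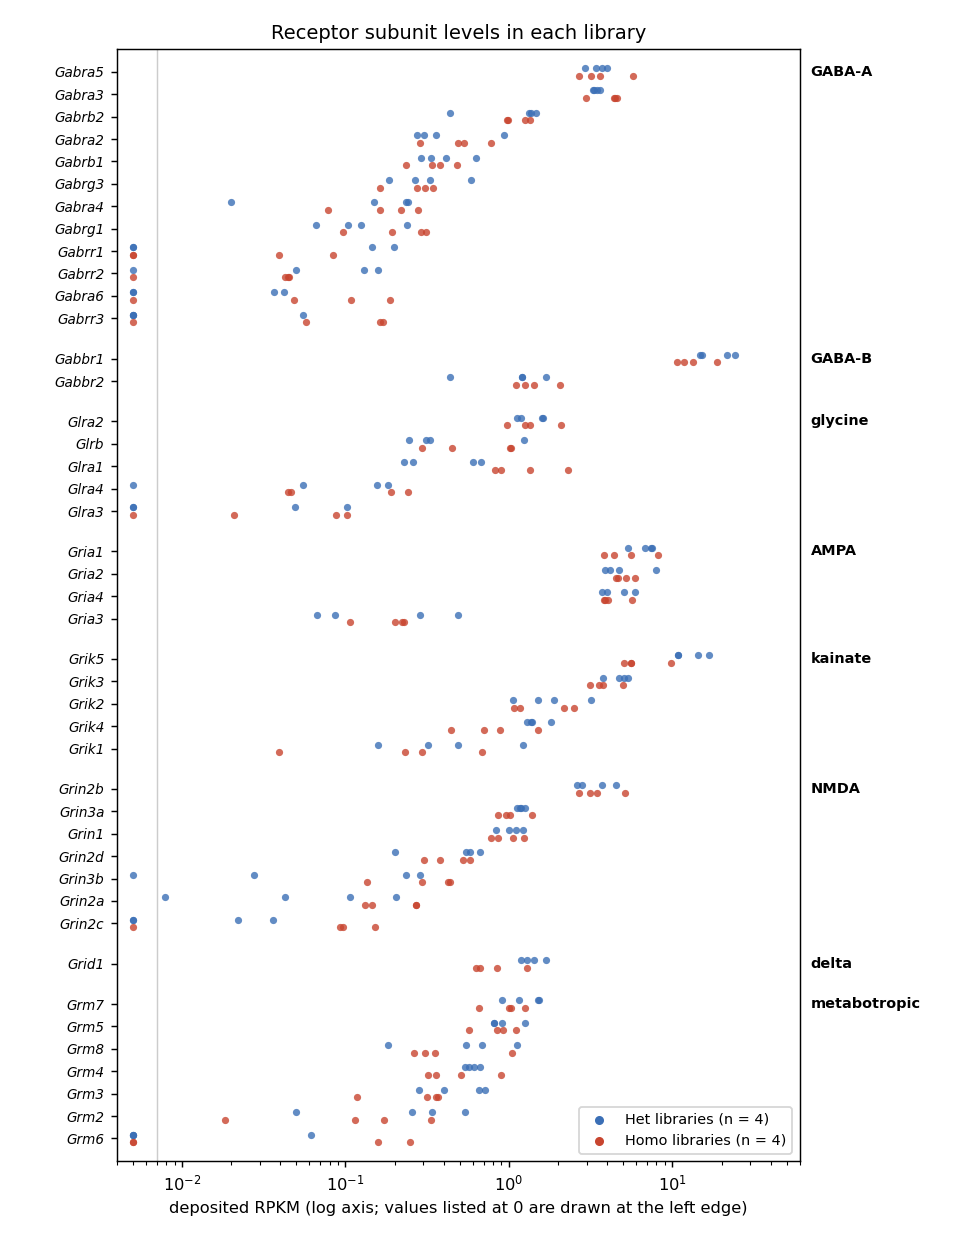
Deposited RPKM of 43 of the 48 receptor subunits on a log axis, 1 point per library, blue for the 4 Het and red for the 4 Homo libraries, grouped by family and ordered by the Het mean. Gabbr1 and Grik5 have the highest Het values, and the 4 Homo points of Grik5 lie to the left of all its Het points, from 5.03 to 9.75 against 10.8 to 16.7.

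On exon reads most of these levels showed no difference between genotypes that passed the test. In a single edgeR quasi-likelihood fit over all genes, 1603 of 12257 genes tested were called at an adjusted p under 0.05 (13.1%), 853 higher in Homo (6.96%) and 750 lower (6.12%). Of the 39 subunits that passed the low-count filter, 2 rose (Glra1 among them), 1 fell (Grik5) and 36 did not pass, so the called share was below that of all genes. An unadjusted p under 0.05 was found for 8 of the 39, among them Grik5, Glra1, Gabra3, Grid1, Gabbr1 and Grik4. Over all genes it was found for 3597 of 12257, a larger share. The median log2 fold change of the 39 was 0.01, against 0.04 over all genes tested, with 20 above and 19 below 0. DESeq2 called 2 of 44 higher and 1 lower, where it called 8.93% of all genes. Under other settings whose subunit counts are given further on, the called share of all genes was 7.27% without a low-count filter, 14.2% with unique reads, 0.0307% with reads over the whole gene, 3.51% with the olfactory and vomeronasal reads as a covariate and 3.4% without Het libraries 1 and 2. All 4 Homo libraries lay above all Het libraries in CPM for 3 subunits (Gabra3 and Glra1 among them) and below for 2 (Grik5 and Grid1), where 19.6% of all genes tested separate in this way (10.3% higher and 9.34% lower in Homo). In bulk RNA, fewer cells that express a subunit and less of its RNA per cell cannot be told apart.

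Of the 11 GABA-A subunits tested, 1 rose and 10 did not pass, and 9 of the 11 had a fold change above 0 (median log2 0.34). Gabra3 on the X chromosome had 111, 129, 125 and 141 exon reads in Het and 149, 122, 191 and 188 in Homo. In CPM, 45.4 ± 3.64 CPM in Het and 61.3 ± 12.4 CPM in Homo did not overlap, with libraries 11 and 12 the highest (log2 0.43 ± 0.17, adjusted p = 0.111). Gabra5, an alpha subunit found largely outside synapses, did not pass (log2 0.25 ± 0.18, adjusted p = 0.390). For the low subunits Gabra2, Gabra4, Gabrb1, Gabrb2, Gabrg1 and Gabrg3 the log2 changes ran from -0.14 (Gabrg3) to 0.93 (Gabrg1), with adjusted p from 0.299 to 0.972. The 9 to 2 split did not hold under a per-library correction for transcript GC, where 5 were above and 6 below 0 (median -0.08), nor with the olfactory and vomeronasal covariate, also 5 and 6 (median -0.21). Summed over the family, RPKM was 18.7, 17.9, 20.6 and 19.2 in Het and 35.3, 19.2, 22.5 and 24.1 in Homo. Library 9 stands apart in that RPKM sum, and library 10 lies within its Het range. Neither holds in CPM, the unit used here to compare libraries. Summed exon CPM of the family was 311, 288, 452 and 406 in Het and 575, 466, 523 and 566 in Homo. In CPM every Homo library, library 10 included, lay above every Het library, and library 9 was close to library 12. No test was made of these sums.

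Both GABA-B subunits were present and neither passed. Gabbr1 had 1532, 1527, 1133 and 1263 exon reads in Het and 1203, 1083, 1017 and 882 in Homo. Libraries 1 and 2 were the highest and library 12 the lowest, and the genotypes overlapped only through library 10 in CPM (log2 -0.31 ± 0.13, adjusted p = 0.131). Its exon-exon reads, 599, 540, 401 and 399 in Het and 413, 327, 292 and 278 in Homo, were called lower when fitted alone (log2 -0.45, adjusted p = 0.0431; 11% of genes were called in that fit). Gabbr2, the subunit that carries the G-protein coupling, stood at 26.4 ± 13.6 CPM in Het and 36.2 ± 4.64 CPM in Homo (log2 0.46 ± 0.33, adjusted p = 0.380).

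Among glycine receptor subunits, Glra1, the alpha subunit of adult spinal cord and brainstem, was called higher from very few reads. Its gene lies at chr11:55514238-55608198 on the minus strand (GRCm38). Exon reads numbered 12, 5, 6 and 18 in Het and 46, 34, 22 and 23 in Homo. The lowest Homo library (11, with 22) was just above the highest Het library (4, with 18). The fitted change was log2 1.66 ± 0.51, adjusted p = 0.0444. That call was lost when any library other than Het library 4 was left out (adjusted p up to 0.122) and with reads on olfactory and vomeronasal genes as a covariate (log2 1.70, adjusted p = 0.147). Per kilobase of exon, Glra1 had 4.97, 2.07, 2.49 and 7.46 reads in Het and 19.1, 14.1, 9.11 and 9.53 in Homo, beside 0.0282, 0.0962, 0.363 and 0.675 and 0.286, 1.60, 1.43 and 1.26 on the olfactory and vomeronasal genes. That background was higher in Homo libraries 10 to 12 than in any Het library, and its part in the Glra1 difference was not tested beyond the covariate. Glra1 also overlaps, by 12870 bases, the antisense gene Gm12236, which had 0 exon reads over all 8 libraries. Exon-exon reads of Glra1 were 0, 0, 0 and 3 in Het and 14, 5, 7 and 0 in Homo, so spliced RNA was seen in 1 Het and 3 Homo libraries. Glra2, the alpha subunit that predominates before birth, had 29, 46, 48 and 41 exon reads in Het and 54, 32, 44 and 45 in Homo. Its genotypes overlapped throughout (log2 0.16 ± 0.28, adjusted p = 0.750). Glrb, the beta subunit that binds gephyrin, had 63 reads in all Het and 91 in all Homo libraries (log2 0.59 ± 0.58, adjusted p = 0.538). Of the alpha-class RPKM, Glra2 held 70.5% ± 12.4 in Het and 49.1% ± 9.01 in Homo, and Glra1 23% ± 12.5 and 44.4% ± 8.35.

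The 4 AMPA subunits did not pass, and no change was resolved in any of them. Gria1 had 368, 412, 394 and 357 exon reads in Het and 411, 353, 294 and 246 in Homo. The genotypes overlapped, and libraries 11 and 12 were the lowest of the 8 (log2 -0.16 ± 0.15, adjusted p = 0.499). Gria2, the subunit whose edited form blocks calcium entry, ranged from 184 to 456 CPM among Het libraries and from 266 to 338 CPM among Homo libraries (log2 0.11 ± 0.23, adjusted p = 0.80). Het library 3 was the highest of all 8. Gria4 (log2 0.05 ± 0.16, adjusted p = 0.866) and Gria3 (log2 -0.22 ± 0.62, adjusted p = 0.850) also did not pass, and none of the 4 had an unadjusted p under 0.05 in edgeR or DESeq2.

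The kainate receptor subunits held the clearest decrease. Grik5 joins Grik1, Grik2 or Grik3 in functional channels, raises their affinity for glutamate and cannot form a channel alone. To set the start of the gene that fell beside that of the next most abundant kainate gene, the 250 bases upstream of each RefSeq start are printed here (RefSeq, GRCm38.p6). Capitals mark each CANNTG, the E-box core that basic helix-loop-helix factors such as Ptf1a bind, which reads as the same pattern on both strands.
Grik5 promoter, chr7:25072370-25072619, minus strand: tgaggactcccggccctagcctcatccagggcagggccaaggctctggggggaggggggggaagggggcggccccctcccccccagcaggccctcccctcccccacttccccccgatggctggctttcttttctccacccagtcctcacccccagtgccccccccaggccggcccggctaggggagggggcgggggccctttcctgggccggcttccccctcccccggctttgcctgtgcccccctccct
Grik3 promoter, chr4:125490446-125490695, plus strand: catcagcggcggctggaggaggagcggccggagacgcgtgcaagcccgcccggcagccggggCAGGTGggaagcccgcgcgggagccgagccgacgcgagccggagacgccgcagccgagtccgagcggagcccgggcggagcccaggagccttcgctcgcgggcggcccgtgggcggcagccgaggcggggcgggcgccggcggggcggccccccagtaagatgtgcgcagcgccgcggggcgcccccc
The Grik5 window held 0 CANNTG and was 75.2% GC, and the Grik3 window held 1 and was 82% GC. Of all 32851 windows of this length in the table, 66.2% held at least 1 CANNTG and the median GC was 52.4%. The table matched 33 of the 48 subunits, with 40 start sites. A match or its absence describes these letters only.

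Grik5 (chr7:25009849-25072346, minus strand, GRCm38) had 707, 672, 538 and 612 exon reads in Het and 417, 272, 321 and 310 in Homo. Every Het library lay above every Homo library, with Homo library 9 the nearest to the Het range. In CPM, 227 ± 25.8 CPM in Het and 124 ± 15.7 CPM in Homo gave log2 -0.87 ± 0.13, adjusted p = 0.00170 (edgeR). The call held without each library in turn, the adjusted p ranging from 0.000811 to 0.0108. Exon-exon reads fell too, from 171, 180, 141 and 140 in Het to 93, 55, 68 and 81 in Homo (log2 -0.98, adjusted p = 0.00130). With olfactory and vomeronasal reads as a covariate the decrease was log2 -0.65, adjusted p = 0.0149. The call was lost with the GC correction (log2 -0.37, adjusted p = 0.116) and with reads over the whole gene (log2 -1.04, adjusted p = 0.108).

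The other 4 kainate subunits had fold changes below 0 without passing. Grik4, the other high-affinity subunit, stood at 29.3 ± 3.34 CPM in Het and 19.1 ± 6.48 CPM in Homo (log2 -0.61 ± 0.26, adjusted p = 0.133). Grik3 stood at 142 ± 11.8 CPM in Het and 129.8 ± 7.78 CPM in Homo (log2 -0.13 ± 0.12, adjusted p = 0.507), Grik2 at 88.9 ± 50.3 CPM in Het and 85.3 ± 28.9 CPM in Homo (log2 -0.06 ± 0.33, adjusted p = 0.930) and Grik1 at 12 ± 11 CPM in Het and 7.98 ± 7.10 CPM in Homo (log2 -0.60 ± 0.72, adjusted p = 0.628). The family median was log2 -0.60, and all 5 stayed below 0 under the other library scalings tried, while under the GC correction 4 of 5 did. Without Het library 3 only 3 were below 0 (median -0.13). Without Homo library 10, without Homo library 11 and with reads over the whole gene 4 of 5 were below 0. With exon-exon reads 3 of the 4 tested were. Summed kainate exon-exon reads per 1000000 exon-exon reads of a library were 449, 372, 529 and 436 in Het and 292, 199, 249 and 291 in Homo. These sums do not overlap, and no test was made of them. The same sums also did not overlap for GABA-B (677 to 930 in Het and 505 to 611 in Homo) and for all 48 subunits (1942 to 2588 and 1505 to 1807). Over all Het libraries Grik5, the subunit called, had 632 exon-exon reads, against 215 for Grik3, 199 for Grik2, 62 for Grik4 and 24 for Grik1.

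NMDA receptor subunits showed no call in edgeR or DESeq2, and none had an unadjusted p under 0.05 in either. Grin2b had 574, 585, 1071 and 1013 exon reads in Het and 1048, 902, 742 and 827 in Homo. Het libraries 1 and 2 were the lowest and library 3 the highest, so the Het spread covers the whole Homo range (log2 0.18 ± 0.21, adjusted p = 0.609). Grin1, the subunit every NMDA receptor needs, stood at 34.2 ± 6.61 CPM in Het and 36.1 ± 5.18 CPM in Homo (log2 0.08 ± 0.20, adjusted p = 0.838), and Grin3a, a subunit that lowers calcium permeability, at 49.5 ± 7.74 CPM in Het and 48.4 ± 2.73 CPM in Homo (log2 -0.03 ± 0.16, adjusted p = 0.923). Grin2d had log2 -0.01 ± 0.43, adjusted p = 0.995. Grin2a had 58 reads in all Het and 132 in all Homo libraries (log2 1.27 ± 0.68, adjusted p = 0.225). Its exon reads per kilobase were 2.13 times those of the olfactory and vomeronasal genes.

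The delta receptors had low exon levels. Grid1 had 64, 78, 99 and 79 exon reads in Het and 65, 54, 43 and 43 in Homo, and in CPM the Homo libraries all lay below the Het libraries, the nearest being Homo library 9 at 22.8 and Het library 1 at 23.9 CPM. The change did not pass (log2 -0.58 ± 0.24, adjusted p = 0.118).

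None of the 7 metabotropic glutamate receptors tested passed, nor had an unadjusted p under 0.05 in edgeR, and DESeq2 called none. Grm7, a presynaptic receptor of low glutamate affinity, had 73, 48, 86 and 75 exon reads in Het and 61, 62, 43 and 65 in Homo. The genotypes overlapped, with Het library 3 the highest and Homo library 11 the lowest (log2 -0.22 ± 0.26, adjusted p = 0.614). The Gq-coupled receptor Grm5 had log2 -0.00 ± 0.24, adjusted p = 0.997. Grm2 and Grm3, which couple to Gi, had log2 -0.77 ± 0.80, adjusted p = 0.565 and log2 -0.71 ± 0.61, adjusted p = 0.469. Grm4 (log2 0.01, adjusted p = 0.992) and Grm8 (log2 -0.18, adjusted p = 0.868) did not pass either.

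**Figure D3:**
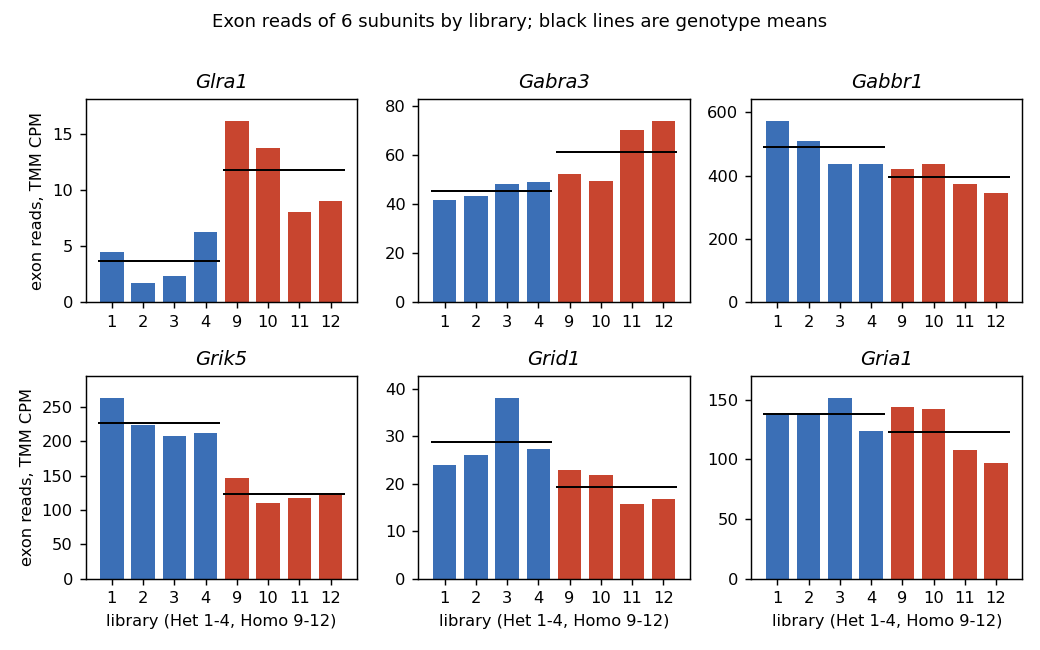
Exon reads in TMM-normalised CPM for 6 subunits, 1 bar per library, blue for Het libraries 1 to 4 and red for Homo libraries 9 to 12, with black lines at the genotype means; each panel has its own axis from 0. Glra1 is higher and Grik5 lower in every Homo library; Gabra3 and Grid1 separate narrowly, and Gabbr1 and Gria1 overlap.

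The other 9 subunits did not reach the filter and had few reads in either genotype. The rho subunits of the retina, Gabrr1, Gabrr2 and Gabrr3, had 8, 7 and 1 exon reads in all Het and 3, 3 and 7 in all Homo libraries. Gabra6, the cerebellar granule cell alpha subunit, had 2 and 9, and Grm6, the receptor of retinal ON bipolar cells, 3 and 24. Glra3 had 14 and 21, Glra4 8 and 10, and Grin2c 3 and 17. Grin3b had the most of these, 17 in Het and 43 in Homo, none of them across an exon junction. It overlaps by 2243 bases Tmem259 on the opposite strand, which had 1095 exon reads over all libraries. The part of that overlap in the Grin3b reads was not tested. Exact two-sided permutation tests on log2(CPM + 1) gave p = 0.143 at the lowest, for Gabrr3, Grin2c and Grin3b. Apart from Grin3b, the exon density of these subunits was at most 1.56 times that of the olfactory and vomeronasal genes. Exon-exon reads were present in all 8 libraries for 24 of the 48 subunits and in none for 5.

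Intron reads of the subunits showed no call. Reads in introns outnumbered exon reads for 43 of the 48 subunits, and summed over the 48 they were 11840, 16397, 50858 and 34933 in Het and 23543, 39085, 37376 and 41649 in Homo. Library 3 was the highest and libraries 1 and 2 the lowest. Over all genes, 96 of 17010 were called on intron reads in edgeR (0.564%), 5 higher in Homo (0.0294%) and 91 lower (0.535%). That count was unstable: with 1 library left out it ranged from 0 (without Homo library 11 or 12) to 2199 (without Het library 4). Of 45 subunits tested 0 were called, and 7 had an unadjusted p under 0.05, against 4213 of the 17010 genes. DESeq2 called 1 of 48, Grik3, lower, where it called 4.29% of all genes (2.12% were called in edgeR without a filter). The median of the subunits was log2 -0.08, against 0.02 over all genes, with 19 above and 26 below 0. These signs depend on the scale: with the exon library sizes and factors in place of the introns' own, the median of all genes moved to 0.81 and that of the subunits to 0.59, and 43 of 45 lay above 0. The split moved up without Het library 3, where 32 of 46 were above 0 (median 0.31). It moved down with the olfactory and vomeronasal covariate, with 3 above and 42 below 0 (median -0.68), without Het libraries 1 and 2, with 10 and 37 (median -0.52), and without Het library 1, with 12 and 34 (median -0.30).

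Of the 8 receptor families, the kainate family had the lowest intron median, log2 -0.59 with all 5 below 0, though with the exon library sizes 3 of the 5 were above 0. Without Het library 3 the kainate split was 2 above and 3 below 0 (median -0.07). In DESeq2, and without Homo library 10, 11 or 12, 4 of 5 were below 0. Grik3 had 875, 1168, 2779 and 1751 intron reads in Het and 877, 1570, 1632 and 1567 in Homo. In intron CPM, 365 ± 96.4 in Het and 192 ± 8.82 in Homo did not overlap (log2 -0.93 ± 0.23, adjusted p = 0.0879); 13.4% of genes tested separate in this way (6.55% higher and 6.8% lower in Homo), and the other subunit that did was Grm2, higher in Homo (log2 0.96 ± 0.53, adjusted p = 0.254). Grik5 had 397, 502, 775 and 550 intron reads in Het and 431, 423, 468 and 489 in Homo. Its intron CPM was 132 ± 32.8 and 65.7 ± 22.4, a difference of the same sign as in exons that did not pass (log2 -1.01 ± 0.27, adjusted p = 0.111). It was called without Het library 4 (log2 -1.20, adjusted p = 0.0283) and without Homo library 9 (log2 -1.27, adjusted p = 0.0413), fits in which 12% and 2.76% of all genes were called. Glra1 had 69, 99, 92 and 155 and 213, 412, 237 and 257 intron reads (log2 0.68 ± 0.27, adjusted p = 0.175). Intron reads per kilobase of the subunits ran from 0.331 (Glra4) to 15.9 (Grik5) times those of the olfactory and vomeronasal genes, and 24 subunits were under 3 times.

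Whether exon and intron changes differ was tested as 1 interaction per gene with the library as a block. Over all genes 208 of 10535 were called (1.97%), 174 with the exon change above the intron change (1.65%) and 34 below it (0.323%). With 1 library left out the count ranged from 39 (without Homo library 10) to 335 (without Het library 4). Of 39 subunits 1 was called, with its exon change above its intron change, and the count was 0 without library 2, 10, 11 or 12. Grik5 did not differ between compartments beyond its error (log2 -0.19 ± 0.19, adjusted p = 0.642). Grik4, with the next smallest p, had its exon change below its intron change (log2 -0.96 ± 0.26, adjusted p = 0.0596). All 7 metabotropic receptors tested had an exon change below their intron change (median log2 -0.55, all genes 0.02), the lowest being -2.16 for Grm2, and none passed. Reads across exon junctions were few: Grm2 and Grm3 had 0 exon-exon reads in Homo and 9 and 7 in Het.

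**Figure D4:**
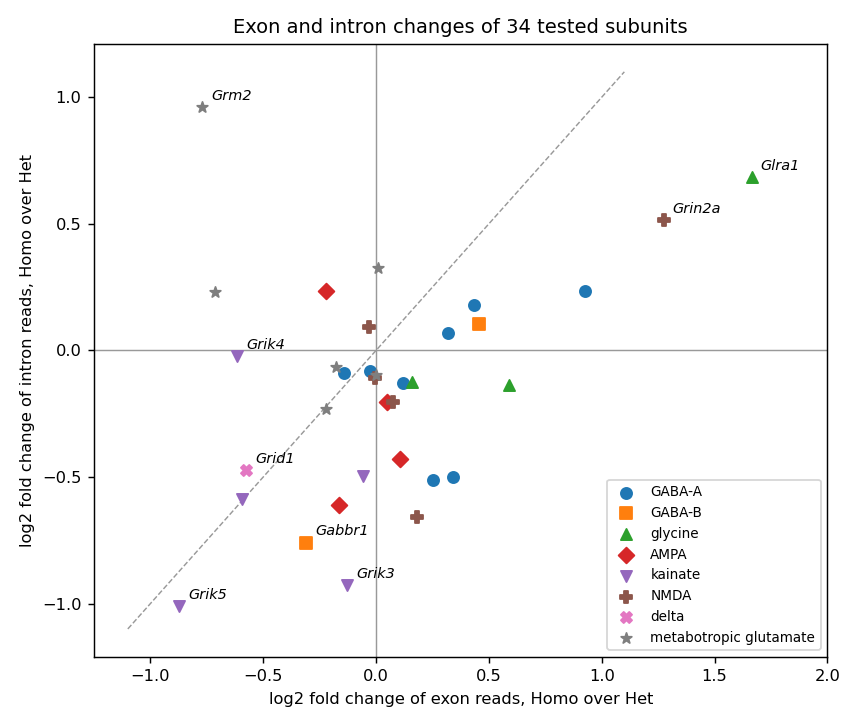
Log2 fold change of exon reads against that of intron reads, Homo over Het, for 34 of the 39 subunits tested on both, with a symbol per family and a dashed line of equality. Glra1 lies farthest to the right, at 1.66 for exons and 0.68 for introns, and Grik5 lies at the lower left at -0.87 and -1.01, near the line.

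Exon changes of the subunits moved with transcript GC content. The median transcript GC was 43.1% for all genes called higher in Homo, 56.7% for those called lower and 49.4% for all tested, and 45.7% for the 39 subunits. Of the 20 subunits with the lower GC, 14 had a fold change above 0 (median log2 0.17), where 84.6% of all genes in that GC range did (median 0.40). Of the 19 with the higher GC, 6 were above 0 (median log2 -0.15), against 36.3% of all genes in that range (median -0.16). Grik5 (61.7% GC) and Glra1 (52.7% GC) both belong to the subunits with the higher GC. Grik5 fell, as most genes in that range did, and Glra1 rose, as 36.3% of them did. After a per-library correction for transcript GC, 0 of the 39 subunits were called in edgeR, and 297 of 12238 genes remained past the threshold (2.43%). An unadjusted p under 0.05 was then found for 8 of the 39 subunits and for 2112 of the 12238 genes. Corrected changes were log2 -0.37, adjusted p = 0.116 for Grik5 and log2 1.81, adjusted p = 0.0781 for Glra1, both of the same sign as before.

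**Figure D5:**
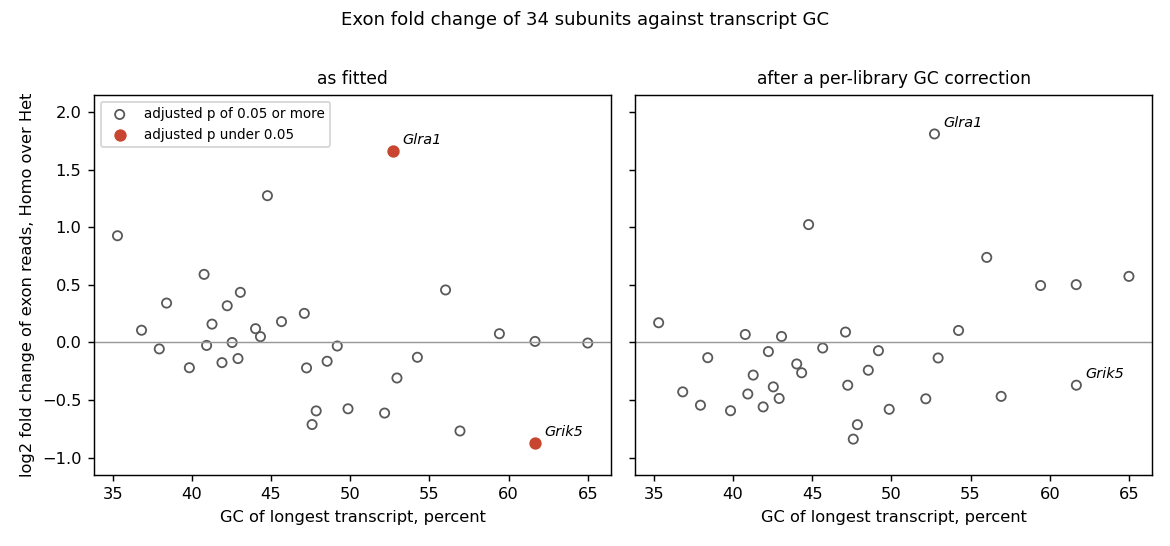
Log2 fold change of exon reads, Homo over Het, of 34 of the 39 tested subunits against the GC content of the longest transcript, as fitted (left) and after a per-library GC correction (right). Filled red points have an adjusted p under 0.05: Glra1 and Grik5 on the left and no subunit on the right, where Glra1 is at 1.81 and Grik5 at -0.37.

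Proteins that assemble, anchor or tune these receptors were followed in 6 lists of 86 genes, 74 of them tested. Of these, 1 rose (1.35%, against 6.96% of all genes) and 10 fell (13.5%, against 6.12%), and the median was log2 -0.14. The 10 that fell have transcript GC between 52.7% and 62.4%, and after the GC correction 0 of the 74 were called in edgeR. In that fit 10 of the 74 had an unadjusted p under 0.05, against 2112 of 12238 genes. On intron reads edgeR called 0 of 75, with 29 at an unadjusted p under 0.05, against 4213 of 17010 genes. DESeq2 called 2 higher and 7 lower of 80 on intron reads (11.2%, against 4.29% of all genes).

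Of 17 tested genes for inhibitory scaffolds and receptor assembly (20 listed), 3 fell and 14 did not pass (median log2 -0.16). Nlgn2, the neuroligin of inhibitory synapses, stood at 348 ± 41.7 CPM in Het and 230.2 ± 42.9 CPM in Homo (log2 -0.60 ± 0.15, adjusted p = 0.0172). Iqsec3, an exchange factor that binds gephyrin, stood at 102 ± 2.77 CPM in Het and 71.4 ± 7.67 CPM in Homo (log2 -0.51 ± 0.13, adjusted p = 0.0199). Gabarapl1, a relative of the GABA-A receptor trafficking protein, stood at 109.9 ± 17.5 CPM in Het and 75 ± 13.9 CPM in Homo (log2 -0.55 ± 0.17, adjusted p = 0.0433). For each of the 3 the genotypes did not overlap in CPM, and exon-exon reads of Nlgn2 were also called lower (log2 -1.18, adjusted p = 0.00410). These calls were lost without some single libraries (2, 10, 11 or 12 for Nlgn2, 11 or 12 for Iqsec3, and 1, 2, 10, 11 or 12 for Gabarapl1).

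Among chloride transporters and their kinases, 2 of 9 tested (12 listed) fell (median log2 0.09). Slc12a5, the potassium-chloride exporter that lowers neuronal chloride, had 311, 228, 246 and 268 exon reads in Het and 171, 202, 140 and 146 in Homo. Homo library 10 overlapped the Het range in CPM (log2 -0.60 ± 0.17, adjusted p = 0.0361). Wnk2, a kinase of these transporters, stood at 399 ± 28.9 CPM in Het and 281 ± 46.4 CPM in Homo (log2 -0.51 ± 0.13, adjusted p = 0.0251). The call was lost without library 1, 4, 9, 11 or 12 for Slc12a5 and without library 1, 2, 10, 11 or 12 for Wnk2.

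Of 16 tested auxiliary subunits of AMPA and kainate receptors (18 listed), 1 fell and 15 did not pass (median log2 0.22). Cnih2, a cornichon that slows AMPA channel closing, had 306, 366, 206 and 239 exon reads in Het and 178, 126, 139 and 140 in Homo. All Het libraries lay above all Homo libraries (log2 -0.86 ± 0.17, adjusted p = 0.00592), and the call held with any single library left out. Its exon-exon reads were called lower as well (log2 -0.93, adjusted p = 0.0466). The call on exon reads was lost with the GC correction, with reads over the whole gene and with the olfactory and vomeronasal covariate.

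In the excitatory scaffold list, 1 of 24 tested (25 listed) rose and 3 fell (median log2 -0.19). Homer2, which links metabotropic receptors to calcium stores, stood at 33.4 ± 3.19 CPM in Het and 53.1 ± 11.5 CPM in Homo (log2 0.67 ± 0.19, adjusted p = 0.0342), a call lost without library 1, 2, 4, 9, 10 or 12. Shank1 stood at 362 ± 34.3 CPM in Het and 229 ± 46.5 CPM in Homo (log2 -0.66 ± 0.14, adjusted p = 0.0105) and kept its call with any single library left out. That call was lost with the GC correction, with reads over the whole gene and with the olfactory and vomeronasal covariate. Shank3 (log2 -0.48 ± 0.14, adjusted p = 0.0368) lost its call without library 2, 3, 4, 10, 11 or 12. Of the delta receptor partners 1 of 6 tested (7 listed) fell (median log2 -0.11): Nrxn2, a presynaptic neurexin that binds cerebellins, had 1839, 2114, 1452 and 1853 exon reads in Het and 1294, 1001, 1171 and 969 in Homo. The genotypes did not overlap (log2 -0.64 ± 0.12, adjusted p = 0.00491), and the call held with any single library left out and on exon-exon reads (log2 -0.64, adjusted p = 0.00795). It was lost with the GC correction and with reads over the whole gene.

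The 4 further GABA-A subunits, Gabrd, Gabre, Gabrp and Gabrq, fall outside the name pattern. The theta subunit gene Gabrq had 105, 124, 54 and 94 exon reads in Het and 80, 69, 115 and 65 in Homo. Het library 3 was the lowest of the 8 and the genotypes overlapped (log2 -0.12 ± 0.24, adjusted p = 0.790). The epsilon subunit gene Gabre had 43, 49, 8 and 32 and 12, 11, 36 and 15 (log2 -0.75 ± 0.53, adjusted p = 0.377). Gabrd and Gabrp did not pass the filter.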

How the data were processed

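Each of the 8 libraries came with its own gene table, and the authors deposited in it whole-number counts of total and unique exon, intron, gene and exon-exon reads as well as RPKM values, per the file headers. The build was GRCm38 (mm10), per the submitters' processing notes; the aligner, the strand setting of counting and the total behind RPKM have no statement in the labels used. Exon reads, intron reads and their interaction were each tested in 1 fit over all genes (filterByExpr, TMM, quasi-likelihood F test; edgeR 4.0.16 in R 4.3.3) with Benjamini-Hochberg adjustment over all genes tested and a threshold of 0.05; SE is the fold change divided by the root of F. DESeq2 1.42.0 was an alternative. Subunits under the filter had exact permutation tests over the 35 splits of 4 against 4. Transcript GC came from GENCODE vM21, and the correction took a lowess curve (span 0.3) per library. No batch was labelled. The fits were tested on simulated data. Results for 6 genes of the families and lists are not reported here, though the counts include them. The members and the 6 lists were chosen with earlier results of these data known. Values in every library are given for subunits called in any test, the highest of each family by Het RPKM, and the 4 smallest exon p. Figures used matplotlib 3.10.9.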

Additional observations from a re-analysis of the deposited data

How the results depend on the processing

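No paired analysis was possible because the labels do not pair any Het library with a Homo library. Subunits called on exon reads (2 higher, 1 lower) became 1 and 1 without a low-count filter, with unique reads, with the olfactory and vomeronasal covariate and without Het libraries 1 and 2; 0 and 0 with reads over the whole gene and with the GC correction; and 0 and 2 with exon-exon reads. With 1 library left out they were 1 to 2 higher and 1 lower. Intron calls (0 and 0) became 1 lower with DESeq2 (Grik3) and without a filter (Grik5), and ranged from 0 to 1 higher and 0 to 3 lower with 1 library left out; the most came without Het library 4 (Grik3, Grik5 and Gabbr1 lower, Grm6 higher; 4 of 46), where 12% of all genes were called. Interaction calls (1 and 0) ranged from 0 to 1 in each direction. Accessory calls (1 higher, 10 lower) became 0 higher with DESeq2; 0 and 18 without a filter; 0 and 0 over the whole gene and with the GC correction; 5 lower with exon-exon reads; 0 and 1 with the covariate; 0 and 3 without Het libraries 1 and 2; and 0 to 3 higher and 3 to 13 lower with 1 library left out. Of the called single-gene values, Shank3 (0.0298) and Wnk2 (0.0085) reversed with the GC correction; 13 values not called also changed sign under some alternative, such as Glra2 on exon reads (-0.79 to 0.26) and Grin2b (-0.37 to 0.34). Of 637 single-gene values under alternatives, 525 kept direction and side of the threshold. Genes called on exon reads, 1603 in all, were 297 with the GC correction, 430 with the covariate, 6 over the whole gene and 734 to 2077 with 1 library left out (fewest without Het library 2). The covariate, the exon-exon reads, the wider library sizes and the fits without libraries 1 and 2 were chosen after seeing the data. Subunits with few reads, such as Glra1, allow no firm size of change, and the permutation tests of the 9 subunits under the filter kept their side of 0.05 with a pseudocount of 0.25.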
